A study of Mus musculus with 45 samples.

Results

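A group of 10 extraembryonic endoderm genes, Cubn, Amn, Lrp2, Dab2, Gata4, Gata6, Sox17, Sox7, Pdgfra and Afp, was described in differentiating mouse embryonic stem cells (ESCs). They were found by gene symbol among 34937 genes counted in 45 RNA-seq libraries, and all 10 were measured. The genes were chosen by their known lineage and selected on a higher CPM in ESCs kept in SL than in ESCs kept in 2iL at day 0, so that difference is given as a description only. The cells were the wild type, male E14tg2a ESC line on the 129/Ola background, a single line that all libraries share. 2iL is serum-free N2B27 medium with the MEK inhibitor PD0325901, the GSK3 inhibitor CHIR99021 and leukaemia inhibitory factor (LIF), and SL is serum with LIF. Cells from either medium were differentiated in 3 courses: as embryoid bodies (EB) in suspension in serum without LIF, as an adherent culture in N2B27 with Fgf2 and Activin A (FA, labelled EpiSC), or as an adherent culture in N2B27 alone (N2B27, labelled Neural). Libraries were made at day 0 (3 from 2iL, 1 from SL) and at days 1, 1.5, 2, 2.5, 3, 5 and 7 of each course. Each medium, course and day had 1 library, but the 45 libraries included none for 2iL FA at day 5.

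The primitive endoderm separates from the epiblast within the inner cell mass of the mouse blastocyst. It is specified by the transcription factors Gata6, Sox17, Gata4 and Sox7 downstream of Fgf signalling, and it expresses Pdgfra. It gives rise to the visceral endoderm, which wraps the embryo, takes up maternal nutrients and secretes serum proteins such as alpha-fetoprotein, and to the parietal endoderm, which lays down the thick basement membrane of the yolk sac. Uptake in the visceral endoderm runs through cubilin (Cubn) and megalin (Lrp2), large receptors of the apical surface. Amnionless (Amn) carries cubilin to the membrane, and the adaptor Dab2 links megalin to clathrin.

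On build GRCm38 the gene models span chr2:13276338-13491813 for Cubn, chr2:69424340-69586065 for Lrp2, chr12:111271095-111276426 for Amn and chr15:6299788-6440712 for Dab2. Gata4 (chr14:63198922-63271692) and Sox7 (chr14:63943673-63950732) lie on the same chromosome, as do Pdgfra (chr5:75152292-75198215) and Afp (chr5:90490737-90508907), while Sox17 is at chr1:4490931-4497354. The sequences just upstream of 4 of these genes are shown because the genes moved together in the libraries described below, or, for Afp, apart from the rest. Each line gives the 250 bases before the RefSeq start on build GRCm38, 5′ to 3′ on the strand of the gene, with motif matches in capitals. The table used holds upstream sequence for 6 of the 10 genes (also Lrp2 and Pdgfra), and none for Gata4, Gata6, Sox17 and Sox7. For Cubn and Afp the RefSeq start lies upstream of the gene model given above.
Cubn, chr2:13491877-13492126, minus strand: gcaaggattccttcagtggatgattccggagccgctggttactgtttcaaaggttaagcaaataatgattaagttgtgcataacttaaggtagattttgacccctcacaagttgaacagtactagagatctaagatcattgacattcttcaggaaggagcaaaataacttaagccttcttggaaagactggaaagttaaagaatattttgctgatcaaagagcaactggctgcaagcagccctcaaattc
Amn, chr12:111270846-111271095, plus strand: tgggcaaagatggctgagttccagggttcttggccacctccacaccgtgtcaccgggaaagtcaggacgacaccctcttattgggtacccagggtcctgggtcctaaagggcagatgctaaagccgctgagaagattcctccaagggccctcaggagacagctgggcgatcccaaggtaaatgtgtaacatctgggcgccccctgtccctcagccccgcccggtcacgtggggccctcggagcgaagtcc
Dab2, chr15:6299539-6299788, plus strand: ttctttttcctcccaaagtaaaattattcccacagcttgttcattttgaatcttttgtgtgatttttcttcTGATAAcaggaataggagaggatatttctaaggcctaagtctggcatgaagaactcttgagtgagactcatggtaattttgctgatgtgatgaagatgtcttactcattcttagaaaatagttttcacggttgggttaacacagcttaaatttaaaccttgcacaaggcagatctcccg
Afp, chr5:90490464-90490713, plus strand: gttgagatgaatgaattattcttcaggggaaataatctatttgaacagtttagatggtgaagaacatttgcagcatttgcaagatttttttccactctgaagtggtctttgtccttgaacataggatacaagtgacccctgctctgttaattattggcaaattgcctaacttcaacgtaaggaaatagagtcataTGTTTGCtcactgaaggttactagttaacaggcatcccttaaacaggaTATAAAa
The words searched on both strands were those of GATA factors (AGATAA, also AGATAG, also TGATAA, also TGATAG), of SOX factors (ACAAT) and of FOXA factors (TGTTTAC, also TGTTTGC), and TATAAA was searched on the gene's strand. Dab2 held 1 GATA word, TGATAA, starting 179 bases before the start. Afp held TGTTTGC at 55 and TATAAA at 7 bases before the start. No word was found in the 250 bases of Cubn, Amn, Lrp2 or Pdgfra. Over all 32851 upstream sequences of the table, 26.5% held a GATA word, 27.7% the SOX word, 7.29% a FOXA word and 7.59% TATAAA.

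The libraries held 13093084 to 39803924 reads on genes (median 18222577), and values below are counts per 1000000 counts of the library (CPM), in which 3 reads correspond to 0.0754 to 0.229 CPM. The 8 libraries of the 2iL EB course were deeper than the rest (median 34490371 against 17297266 reads for the other 37). At day 0, the stem cell markers Pou5f1 (488 to 563 CPM in 2iL, 719 in SL) and Nanog (837 to 1008 in 2iL, 632 in SL) were high in all 4 libraries. At days 5 and 7, the neural marker Pax6 stood at 25.7 to 107 CPM in N2B27. The sums of the 9 neuroepithelial markers listed, Pax6 among them, overlapped between the courses at these days. They were 340 to 757 CPM in N2B27, 225 to 470 CPM in FA and 226 to 441 CPM in EB. The highest, 757 CPM, was in N2B27 from 2iL, and no library from SL was above 491 CPM at these days. In FA, labelled EpiSC, Fgf5 (25.3 to 48.6 CPM) and Pou5f1 (177 to 253 CPM) were present at days 5 and 7, as was the neural gene Sox1 (17.8 to 71.6 CPM).

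At day 0, all 10 genes had a higher CPM in the SL library than in any of the 3 libraries from 2iL. The receptor gene Cubn was at 0.743, 0.399 and 1.40 CPM in 2iL and at 274 CPM in SL, and the adaptor gene Dab2 was at 1.34, 1.06 and 0.560 CPM against 91.3 CPM. Lrp2 was the only one of the 10 above 5 CPM in 2iL, with 38.1, 30.0 and 26.1 CPM against 284 CPM in SL. Amn was at 0.0297, 0.133 and 0.140 CPM, from 1, 2 and 3 reads, against 6.91 CPM. The SL library thus stood far above the 2iL libraries for the uptake genes, and the 2iL libraries lay close together.

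The transcription factor genes of the primitive endoderm were near the lower end of detection in 2iL. There, Gata4 was at 1.28, 0.732 and 0.607 CPM and Gata6 at 1.22, 0.665 and 0.560 CPM, against 15.1 and 35.4 CPM in SL. Sox17 was at 0.714, 0.200 and 0.187 CPM against 7.57 CPM, and Sox7 at 0.149, 0.200 and 0.0934 CPM against 5.27 CPM. Pdgfra, the PDGF receptor of primitive endoderm cells, was at 4.13, 0.599 and 0.840 CPM against 40.8 CPM, and the library with 4.13 CPM also had the highest Gata4, Gata6 and Sox17 of the 3. Afp had 1, 0 and 1 reads in 2iL and 5 reads in SL, too few for a fold. Of 19814 genes, 18.9% were at least 2-fold higher in SL and above all 3 libraries from 2iL by this measure. Since the libraries are of whole cultures, fewer cells of a type and less RNA per cell cannot be told apart here or below.

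From 2iL, the uptake genes were higher at day 3 than at day 1 in every course. Cubn went from 3.23 to 45.8, 188, 219 and 140 CPM at days 1, 1.5, 2, 2.5 and 3 of EB, from 1.52 to 11.5, 107, 262 and 287 CPM in FA, and from 4.06 to 17.3, 50.0, 131 and 262 CPM in N2B27. EB held the highest of the 3 values at days 1.5 and 2 and its own highest at day 2.5, and N2B27 the lowest at days 2 and 2.5. Dab2 rose from 1.33, 0.659 and 1.76 CPM at day 1 to 58.3, 126 and 97.8 CPM at day 3 in EB, FA and N2B27. Amn rose from 0.302, 0.198 and 0.271 CPM to 4.15, 4.66 and 3.76 CPM. Lrp2 moved earlier: from 26.1 to 38.1 CPM at day 0 it was already at 384, 372 and 328 CPM at day 1, and it then reached 531, 693 and 676 CPM at day 3.

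**Figure D1:**
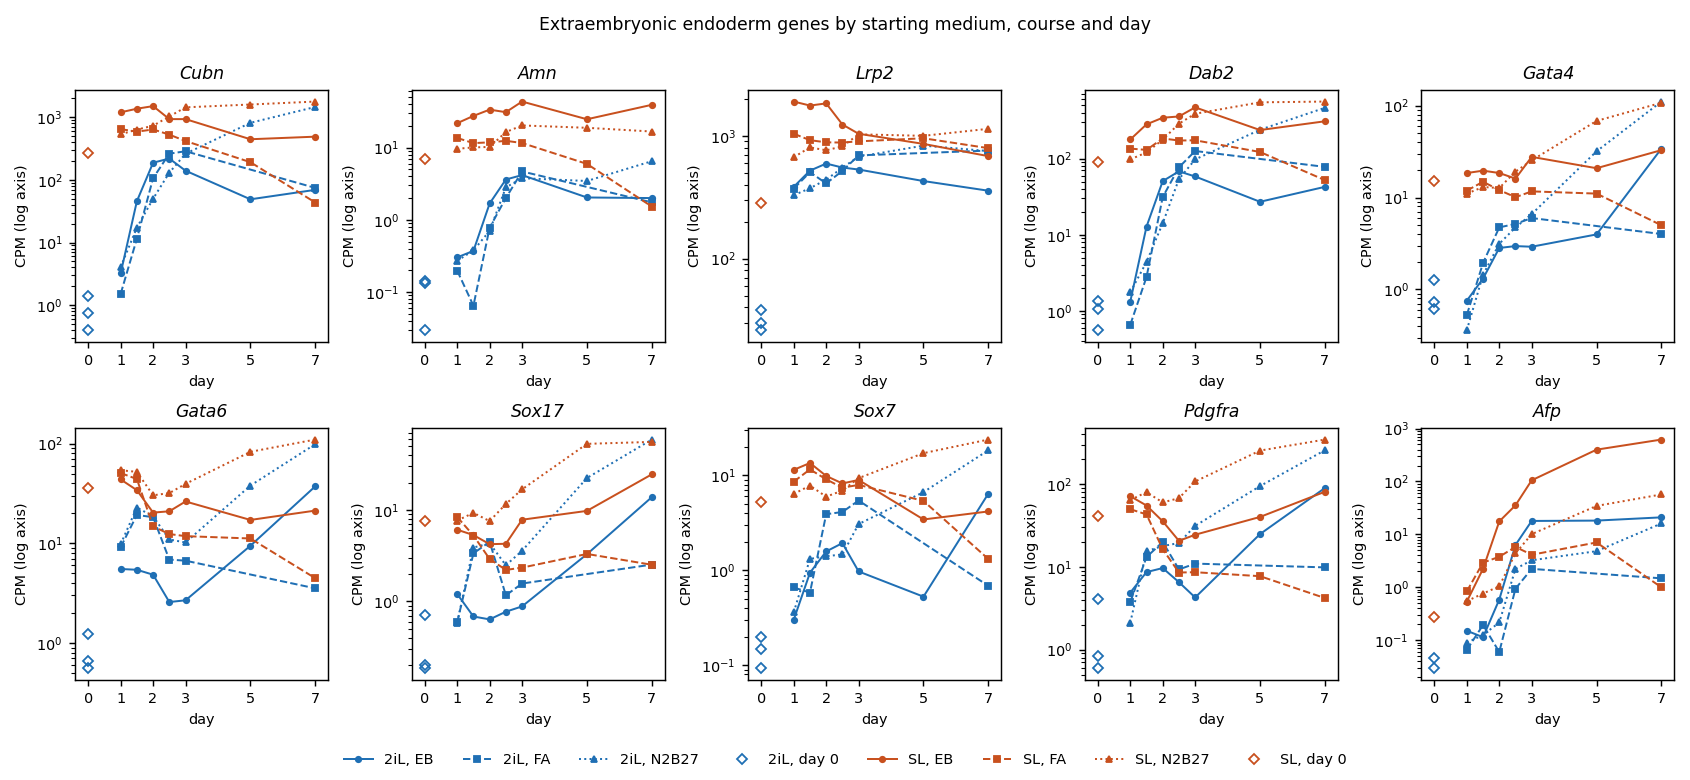
CPM (log axis) of each gene against day for the courses from 2iL (blue) and SL (orange), with open diamonds for day 0 and 1 library per point; 1 library from 2iL with 0 Afp reads is not drawn. Cubn is at 1.52 to 4.06 CPM from 2iL and at 536 to 1201 CPM from SL at day 1, and at 1462 and 1783 CPM at day 7 of N2B27.

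Gata6 did not show this steady increase from 2iL over these days. In 2iL FA, Gata6 was at 9.16, 19.2, 18.3, 6.86 and 6.69 CPM at days 1, 1.5, 2, 2.5 and 3, and in 2iL N2B27 at 9.80, 22.8, 18.6, 10.9 and 10.2 CPM, so in both its highest value came at day 1.5. In 2iL EB Gata6 stayed between 2.58 and 5.53 CPM up to day 3. Sox17 likewise went from 0.593 to 3.36 and 4.49 CPM at days 1.5 and 2 and back to 1.17 CPM at day 2.5 in 2iL FA, where Pdgfra reached 20.01 CPM at day 2 and was at 9.31 CPM at day 2.5. In 2iL N2B27, Pdgfra was at 2.12, 15.5, 17.9, 19.4 and 31.3 CPM at days 1, 1.5, 2, 2.5 and 3, and so did not return to its day 1 level. Sox17 was there at 0.587, 3.89, 4.33, 2.49 and 3.59 CPM. Gata4 was higher at day 3 (2.92, 5.98 and 6.60 CPM in EB, FA and N2B27) than at day 1 (0.755, 0.527 and 0.361 CPM). The 6 libraries of days 2.5 and 3 from 2iL were compared with the 9 of days 1 to 2 in an edgeR quasi-likelihood model, a comparison that was added after the values were seen. Cubn (log2 change 2.28 ± 0.60 SE, adjusted p = 0.0029), Dab2 (2.66 ± 0.54), Amn (2.74 ± 0.36), Lrp2 (0.40 ± 0.10), Gata4 (1.23 ± 0.43, adjusted p = 0.020) and Afp (4.42 ± 0.75) rose, and Gata6 fell (-1.001 ± 0.31, adjusted p = 0.010). Sox17 (-0.38 ± 0.42), Sox7 (1.03 ± 0.46) and Pdgfra (0.05 ± 0.39) did not pass the threshold of an adjusted p of 0.05. Among 16944 genes tested, 26.7% rose and 23.7% fell by the same test. Without the 2iL N2B27 library of day 3, the change of Gata4 no longer passed (adjusted p = 0.059).

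From SL, none of the 4 uptake genes passed the threshold over the same interval on average over the courses. Cubn ranged from 536 to 1508 CPM at days 1 to 2 (median 647) and from 418 to 1442 CPM at days 2.5 and 3 (median 935), and the 2 ranges overlapped over most of their length. By course, Cubn was at 536 CPM at day 1 and 1442 CPM at day 3 in N2B27, at 1201 and 935 CPM in EB, and at 647 and 418 CPM in FA. Dab2 was at 178, 282 and 345 CPM at days 1, 1.5 and 2 and at 358 and 471 CPM at days 2.5 and 3 in EB, at 97.7, 121 and 178 and then 288 and 389 CPM in N2B27, and at 136, 130 and 184 and then 173 and 174 CPM in FA. The course-by-course changes from SL were not tested. The change was -0.01 ± 0.59 for Cubn, -0.17 ± 0.10 for Lrp2, 0.41 ± 0.29 for Amn and 0.71 ± 0.52 for Dab2. Afp rose (2.47 ± 0.51, adjusted p = 0.0010), and Gata6 (-0.82 ± 0.30, adjusted p = 0.036) and Pdgfra (-1.01 ± 0.39, adjusted p = 0.044) fell, against 17.9% of genes that rose and 17.7% that fell. The falls of Gata6 and Pdgfra each lost their call in 12 of 15 fits that left out 1 library. In a test of the difference between the media, the rise from 2iL exceeded that from SL for Amn (2.33 ± 0.47, adjusted p = 0.0081) and Lrp2 (0.57 ± 0.14, adjusted p = 0.035), but not past the threshold for Cubn (2.29 ± 0.85, adjusted p = 0.26) or Dab2 (1.95 ± 0.76, adjusted p = 0.28), where 1.04% of genes passed in this direction. The call for Lrp2 was lost in 15 of 30 fits without 1 library. With the day added as a block, Cubn (3.20, adjusted p = 0.020) and Dab2 (2.58, adjusted p = 0.011) passed as well, and with counts summed per medium, course and stage none of the 10 did. As the genes were selected on a higher level in SL at day 0, this comparison of the media is not independent of that selection.

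**Figure D2:**
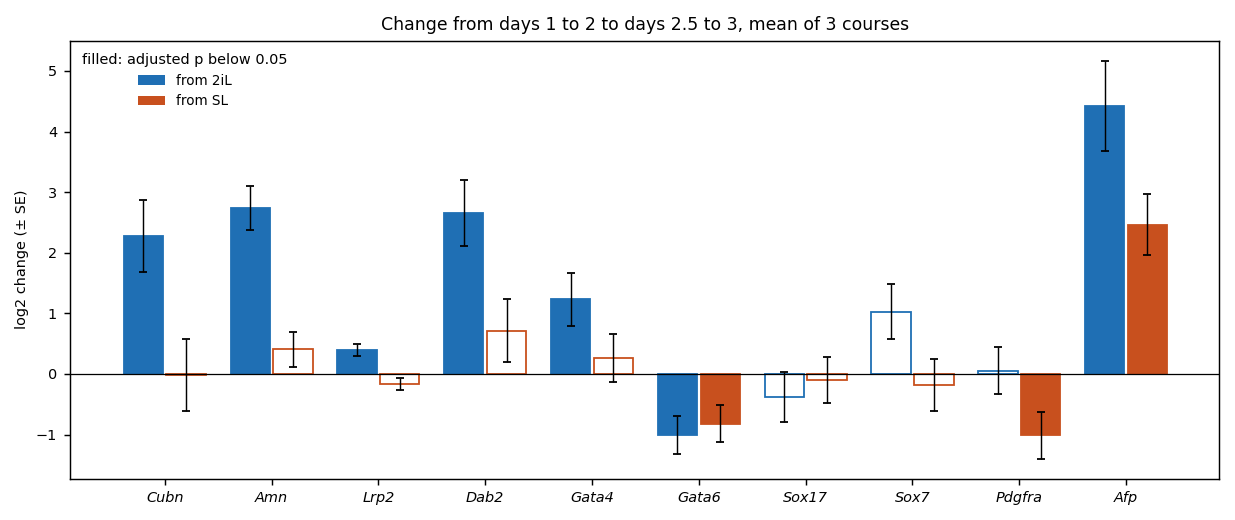
Log2 change (± SE) from days 1 to 2 to days 2.5 to 3, averaged over the 3 courses, for cells from 2iL and from SL; filled bars passed an adjusted p of 0.05. The uptake genes Cubn, Amn and Dab2 changed by 2.28 to 2.74 from 2iL and by -0.01 to 0.71 from SL, and Afp rose from both.

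Cells that started in SL kept higher levels of these genes early in differentiation. At days 1 to 2, Cubn ranged from 1.52 to 188 CPM (median 17.3) in the 9 libraries from 2iL and from 536 to 1508 CPM (median 647) in the 9 from SL, with no overlap. The ranges also stood apart for Amn (0.0647 to 1.68, median 0.371, against 9.60 to 33.4, median 11.8), Lrp2 (328 to 594, median 410, against 669 to 1901, median 921) and Dab2 (0.659 to 50.7, median 4.39, against 97.7 to 345, median 178). Gata4 (0.361 to 4.73, median 1.44, against 11.03 to 19.6, median 13.02) and Sox7 (0.302 to 3.89, median 0.942, against 5.95 to 13.5, median 9.07) did not overlap either. Gata6 (4.84 to 22.8, median 9.80, against 14.8 to 54.0, median 43.7), Sox17 (0.587 to 4.49, median 1.21, against 2.91 to 9.32, median 6.10) and Pdgfra (2.12 to 20.01, median 9.68, against 16.4 to 80.0, median 55.1) overlapped, and in each of these 3 SL was higher in 8 of the 9 pairs of the same course and day. Afp ranged from 0.0599 to 0.586 CPM (median 0.125) against 0.538 to 17.6 CPM (median 1.04).

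All 10 genes were higher from SL at days 1 to 2 by the edgeR quasi-likelihood test, where 16.8% of genes were higher and 15.6% lower. The genes had been selected on a higher level in SL at day 0 of the same line. Their counts here and at later days are therefore not independent of that selection, unlike the share over all genes. The log2 difference was 4.22 ± 0.61 for Cubn (adjusted p = 6.5e-06), 4.85 ± 0.34 for Amn, 1.30 ± 0.09 for Lrp2 and 3.82 ± 0.53 for Dab2. It was 2.90 ± 0.40 for Gata4, 1.72 ± 0.27 for Gata6, 1.65 ± 0.35 for Sox17 and 2.90 ± 0.42 for Sox7, 2.26 ± 0.35 for Pdgfra and 3.81 ± 0.76 for Afp (adjusted p = 0.00036). Within EB all 10 passed, within FA and within N2B27 7 each, against 7.11%, 6.34% and 4.50% of genes that were higher in the same course. Gata6 and Sox17 did not pass in FA (1.25 ± 0.46 and 0.98 ± 0.61) or N2B27 (1.30 ± 0.46 and 1.37 ± 0.60), nor did Pdgfra in FA (1.58 ± 0.60) or Afp in N2B27 (2.33 ± 1.55), and whether the courses differ in this was not tested. Without the 2iL FA library of day 1.5 the count in FA was 2, without the 2iL N2B27 library of day 1 that in N2B27 was 3, and in EB it was 8 to 10 over the fits that left out 1 library. Without the EB libraries the difference of Sox17 missed the threshold (1.18, adjusted p = 0.053). Neighbouring days of a course stood in for replicates in this model, so that their trend enters the error, and no label gives separate cultures: p-values measure the spread between these libraries.

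Other genes of these lineages differed by starting medium at days 1 to 2 as well. Of 8 primitive endoderm markers outside the group, 7 were higher from SL, among them Col4a2 (3.20 ± 0.30), Col4a1 (2.99 ± 0.29) and Lama1 (2.76 ± 0.27), which encode basement membrane chains and are also on the parietal list (9 of 12 higher). Of 14 visceral endoderm markers 12 were higher, led by the serum protein genes Apoa4 (6.04 ± 0.90), Ttr (5.07 ± 0.55), Apoa1 (4.62 ± 0.83) and Apob (3.59 ± 0.60). Of 13 genes for partners in cubilin and megalin uptake, 7 were higher, including Clcn5 (1.87 ± 0.26), an endosomal chloride transporter, Myo6 (1.64 ± 0.18), a motor of endocytic vesicles, Lrpap1 (1.48 ± 0.14), a chaperone of megalin, and Tcn2 (1.40 ± 0.23), a carrier of vitamin B12. The median difference was 2.42 for the primitive endoderm list, 2.62 for the visceral list and 0.31 for the uptake partners, and 0.00 over all genes. Of 9 definitive endoderm markers 5 were higher (median 1.47), and of 6 trophoblast markers 3. Foxa2 is on the definitive list and also on the primitive and visceral lists, so these lists are not separate. None of the 8 undifferentiated stem cell markers and none of the 8 EpiSC and formative markers passed in this comparison, and 1 of 9 neuroepithelial markers did, Pax6, which was lower (-1.06 ± 0.32).

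At days 5 and 7 the difference by starting medium was smaller than at days 1 to 2 for each of the 10 genes, and at days 2.5 and 3 for all but Gata6 and Sox17. At days 2.5 and 3, Cubn was still higher in SL in 6 of 6 pairs and without overlap (131 to 287 CPM, median 241, against 418 to 1442, median 935), and 8 of the 10 genes passed (5.17% of genes were higher), Cubn (1.93 ± 0.67, adjusted p = 0.067) and Pdgfra (1.19 ± 0.43, adjusted p = 0.075) being the exceptions. Among the 8 that passed, the largest differences were those of Amn (2.52 ± 0.34), Gata4 (1.94 ± 0.45), Sox17 (1.93 ± 0.45) and Gata6 (1.91 ± 0.34). Dab2 (1.87 ± 0.59, adjusted p = 0.043) lost its call in 14 of 15 fits that left out a library or a course, Afp in 11 and Sox7 in 8. Without the EB libraries 2 of the 10 passed, with counts summed per stage 3 did, and with the day as a block or with DESeq2 all 10 did. Over all genes, in either direction, 1669 passed in the main fit, 825 with summed counts and 3665 with the day as a block. At days 5 and 7, Lrp2 (0.56 ± 0.12), Amn (2.32 ± 0.40) and Afp (2.76 ± 0.64) were higher from SL, against 1.48% of genes, and none of the 3 passed without EB. Pdgfra was at 9.86 to 257 CPM (median 89.6) from 2iL and at 4.20 to 345 CPM (median 60.5) from SL, a difference of 0.06 ± 0.45.

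**Figure D3:**
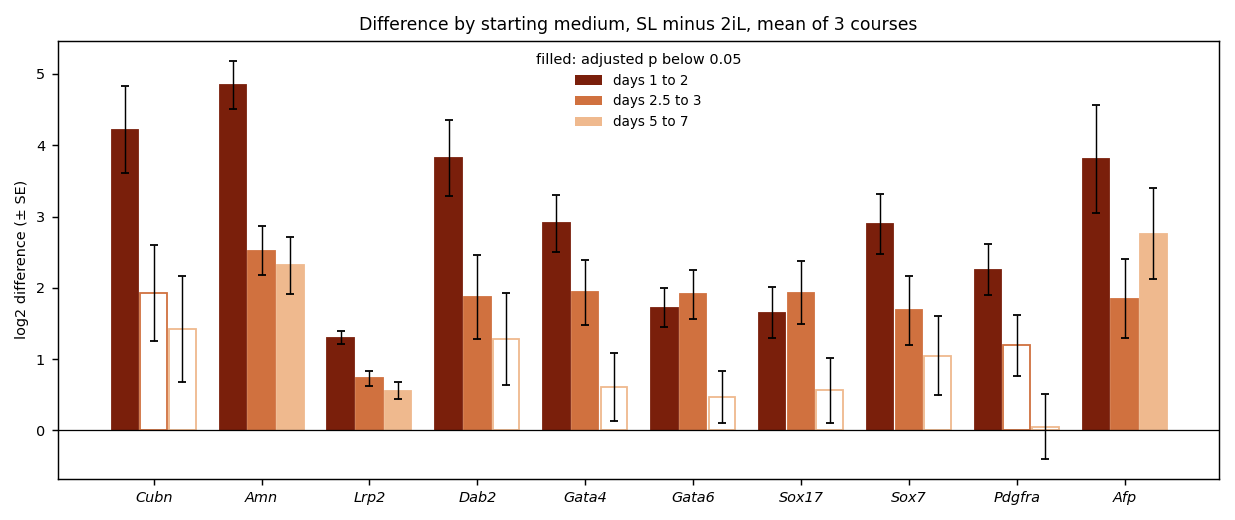
Log2 difference (± SE) between courses from SL and from 2iL at 3 stages, averaged over EB, FA and N2B27; filled bars passed an adjusted p of 0.05. Cubn goes from 4.22 to 1.93 and 1.42, and 10, 8 and 3 of the 10 genes passed at the successive stages.

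The 10 genes were selected on a higher level in SL at day 0, so a later fall of their SL minus 2iL difference is not independent of that selection. In a test of the change in this difference, it shrank from days 1 to 2 to days 5 and 7 for Lrp2 (-0.74 ± 0.15, adjusted p = 0.0028), Amn (-2.53 ± 0.50, adjusted p = 0.0029), Gata4 (-2.29 ± 0.61, adjusted p = 0.025) and Pdgfra (-2.20 ± 0.56, adjusted p = 0.020), where 3.15% of genes passed in this direction. Cubn (-2.79 ± 0.89, adjusted p = 0.063) and Dab2 (-2.54 ± 0.79, adjusted p = 0.057) had like values just above the threshold. With the day as a block both passed (-3.72, adjusted p = 0.0048, and -3.13, adjusted p = 0.0016). Of the 10 genes, 6 passed with this block, 7 with DESeq2 and 1, Gata4, with counts summed per medium, course and stage. Over all genes, in either direction, 935 passed in the main fit, 2905 with the block and 1451 with DESeq2. The call for Pdgfra was lost without the 2iL EB library of day 7 (-1.80, adjusted p = 0.064), and that for Gata4 without this library (-1.54) or any of 3 others, 2iL N2B27 day 7, SL EB day 5 and SL N2B27 day 5.

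In N2B27, all 10 genes rose late on average over the 2 starting media, and the change within each medium was not tested. Cubn was at 816 and 1462 CPM at days 5 and 7 from 2iL and at 1600 and 1783 CPM from SL, against 4.06 to 50.0 and 536 to 733 CPM at days 1 to 2. Dab2 was at 240 and 465 CPM from 2iL and at 549 and 562 CPM from SL. Amn from SL was at 9.60 to 10.2 CPM at days 1 to 2 and already at 20.2 CPM at day 3, and then at 18.7 and 16.6 CPM at days 5 and 7. Gata4 was at 31.8 and 111 CPM from 2iL and at 68.2 and 107 CPM from SL, and had not been above 3.14 and 13.02 CPM at days 1 to 2. These values at day 7 were the highest of the 45 libraries, from one medium or the other, for 7 of the 10 genes. The exceptions were Lrp2, highest in SL EB at day 1, and Amn and Afp, highest in SL EB at days 3 and 7.

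The other factors and Pdgfra were also at their highest at day 7. At that day of N2B27, Gata6 was at 98.7 CPM from 2iL and 110 CPM from SL, Sox17 at 59.1 and 55.7 CPM, and Sox7 at 18.4 and 23.8 CPM. Pdgfra was at 257 and 345 CPM. The 2 libraries of day 7 lay close to each other for each of these 4 genes, with no replicate of either.

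By the edgeR test, all 10 genes rose from days 1 to 2 to days 5 and 7 of N2B27, where 35.1% of all genes rose. The log2 change was 3.39 ± 0.75 for Cubn (adjusted p = 0.00031), 2.06 ± 0.40 for Amn, 0.70 ± 0.12 for Lrp2 and 3.78 ± 0.68 for Dab2. It was 4.04 ± 0.51 for Gata4, 1.45 ± 0.35 for Gata6 (adjusted p = 0.00073), 3.17 ± 0.46 for Sox17, 2.52 ± 0.53 for Sox7, 2.92 ± 0.46 for Pdgfra and 5.91 ± 0.76 for Afp. All 10 passed in every fit that left out 1 library. All 8 other primitive endoderm markers, all 12 parietal markers and 13 of 14 visceral markers rose as well, among them Col4a2 (5.68 ± 0.42), Col4a1 (5.53 ± 0.41) and Lama1 (4.84 ± 0.38), the retinol carrier genes Ttr (6.62 ± 0.66) and Rbp4 (6.03 ± 0.52) and the signal gene Ihh (5.61 ± 0.55). Of the 13 uptake partners 8 rose and 1 fell, with Tcn2 (3.18 ± 0.30), Clcn5 (2.90 ± 0.34) and Lrpap1 (2.45 ± 0.19) among those that rose. The summed CPM of the 8 primitive endoderm markers was 6962 to 24993 from 2iL and 17127 to 28380 from SL at days 5 and 7 of N2B27. The 9 neuroepithelial markers summed to 485 to 757 CPM and 340 to 491 CPM in the same libraries, and since CPM is not per length the 2 sums were not compared with each other.

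**Figure D4:**
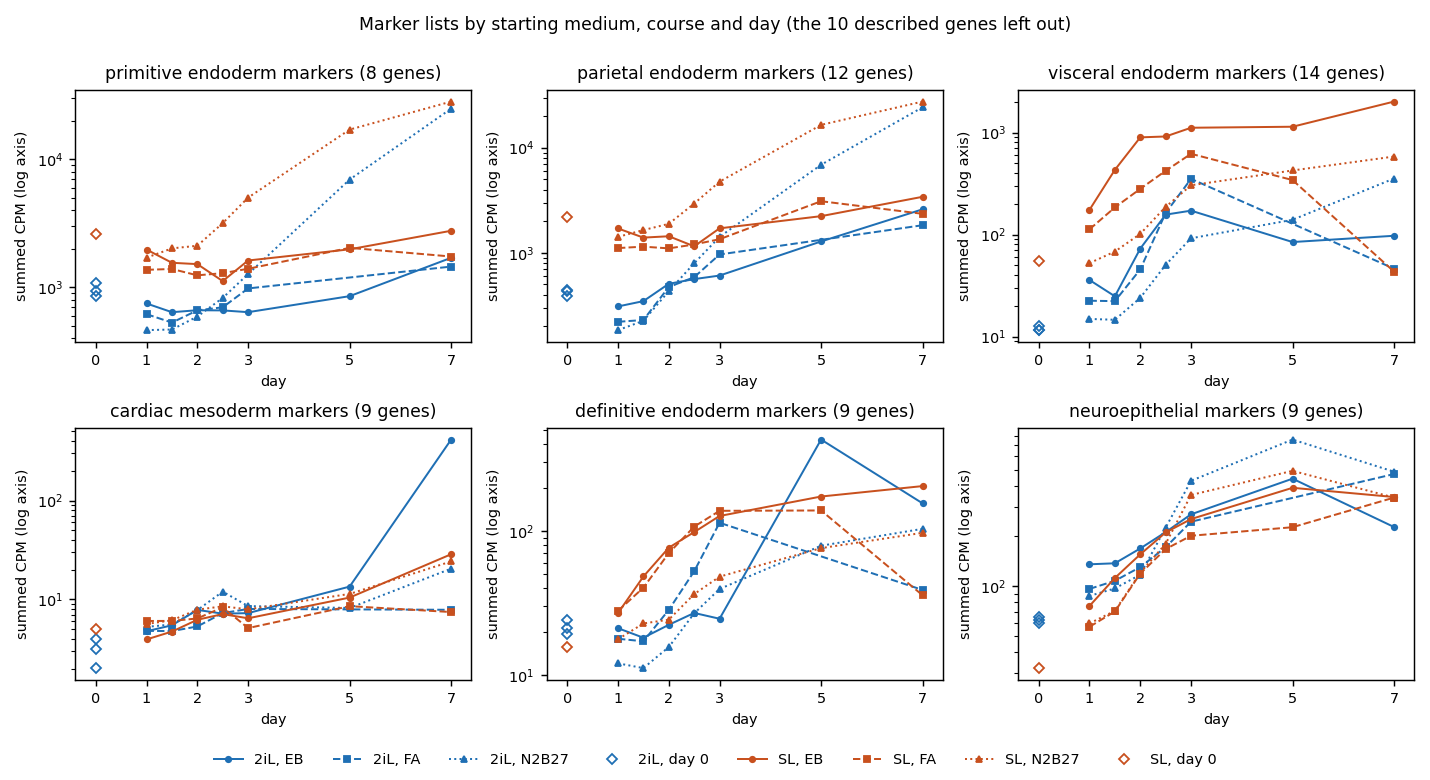
Summed CPM (log axis) of marker lists, with the 10 described genes left out, against day for each course from 2iL and SL, 1 library per point. The primitive endoderm list reaches 6962 to 28380 CPM at days 5 and 7 of N2B27 and stays at 852 to 2767 CPM in EB and 1451 to 2033 CPM in FA.

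The late rise differed between courses. In FA, Cubn was at 74.5 CPM at day 7 from 2iL and at 192 and 43.5 CPM at days 5 and 7 from SL, below all 4 N2B27 libraries of these days. Gata4 was at 4.01 CPM from 2iL and 11.04 and 4.99 CPM from SL, Gata6 at 3.53 CPM and 11.2 and 4.47 CPM, and Pdgfra at 9.86 CPM and 7.72 and 4.20 CPM. These too lay below every N2B27 library of days 5 and 7. Of the 10 genes, 9 were lower in FA than in N2B27 (10.9% of genes were lower), with log2 differences of -3.97 ± 1.13 for Cubn (adjusted p = 0.012), -4.98 ± 0.75 for Pdgfra, -4.19 ± 0.70 for Sox17, -4.03 ± 0.56 for Gata6 and -3.88 ± 0.73 for Gata4. Lrp2 did not pass (-0.25 ± 0.15, adjusted p = 0.24), and Dab2 (-2.50 ± 0.89, adjusted p = 0.044) lost its call in 4 of 6 fits without 1 library. All 8 other primitive endoderm markers and 10 of 14 visceral markers were lower in FA.

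Within FA, Gata6 (-2.22 ± 0.49, adjusted p = 0.00045) and Pdgfra (-1.51 ± 0.59, adjusted p = 0.032) fell from days 1 to 2 to days 5 and 7, against 26.5% of genes that fell. Lrp2, at 758 CPM from 2iL and 955 and 793 CPM from SL, had a change of 0.31 ± 0.14 (adjusted p = 0.0497; 30.2% of genes rose), a call lost in 7 of 8 fits without 1 library, as that of Pdgfra was in 4. The change was larger in N2B27 than in FA for Cubn (4.20 ± 1.25, adjusted p = 0.041), Gata4 (4.08 ± 0.84), Gata6 (3.67 ± 0.61), Sox17 (3.75 ± 0.77), Sox7 (4.01 ± 0.92) and Pdgfra (4.43 ± 0.79), with 3.31% of genes passing in this direction. The call for Cubn was lost in 11 of 18 fits without 1 library. This comparison, and the like one of N2B27 with EB, were added after the values were seen. The changes are averages over both starting media. In FA from 2iL, Cubn was at 1.52 CPM at day 1 and 74.5 CPM at day 7, and in FA from SL at 647 and 43.5 CPM. Dab2 was at 0.659 and 78.0 CPM from 2iL, and at 136 and 52.2 CPM from SL.

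**Figure D5:**
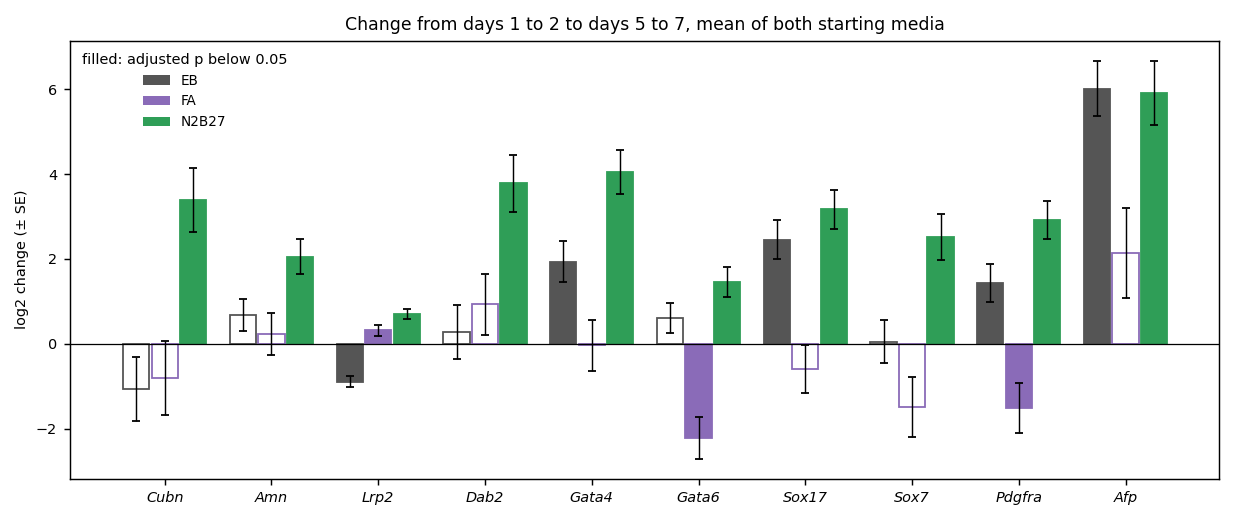
Log2 change (± SE) from days 1 to 2 to days 5 to 7 in EB, FA and N2B27, averaged over both starting media; filled bars passed an adjusted p of 0.05. All 10 genes rose in N2B27, while Cubn changed by -1.07 ± 0.75 in EB and -0.81 ± 0.88 in FA. In EB and FA alike, Cubn was higher at day 7 than at day 1 from 2iL and lower from SL.

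In EB, the members of the group parted. Cubn was at 48.99 and 69.4 CPM at days 5 and 7 from 2iL and at 446 and 490 CPM from SL, and Lrp2 at 428 and 357 CPM and at 859 and 683 CPM. Both lay lower than at day 2 of the same courses. Afp, the main serum protein of the visceral endoderm and fetal liver, rose instead: in SL EB it was at 0.538, 2.24, 17.6, 35.4, 105, 399 and 619 CPM from day 1 to day 7, and the last 3 of these were the highest of the 45 libraries. In 2iL EB Afp reached 18.2 and 21.0 CPM. Cubn at days 5 and 7 was above its day 1 value from 2iL (3.23 CPM) and below it from SL (1201 CPM). The changes tested next are averages over both starting media. Between days 1 to 2 and days 5 and 7, Afp (6.01 ± 0.65, adjusted p = 2.8e-08), Sox17 (2.45 ± 0.46), Gata4 (1.93 ± 0.48) and Pdgfra (1.44 ± 0.45, adjusted p = 0.0069) rose and Lrp2 fell (-0.89 ± 0.12), against 33.0% of genes that rose and 30.9% that fell, while Cubn (-1.07 ± 0.75), Amn (0.69 ± 0.37), Dab2 (0.27 ± 0.64), Gata6 (0.61 ± 0.36) and Sox7 (0.04 ± 0.51) did not pass.

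Part of this rested on 1 library, 2iL EB at day 7. Gata4 was at 3.97 CPM at day 5 and 34.1 CPM at day 7 of 2iL EB, Pdgfra at 24.9 and 89.6 CPM, and Gata6 at 9.45 and 37.3 CPM. In the same 2 libraries the summed CPM of 9 cardiac mesoderm markers went from 13.5 to 414 and that of the 9 endothelial markers from 15.7 to 174 (148 at day 0), while in SL EB at days 5 and 7 they were at 10.4 to 28.7 and 19.0 to 46.5. Most of each sum at day 7 was 1 gene: Hand1 went from 1.98 to 364 CPM and Kdr from 8.62 to 140 CPM. Hand1 is also on the trophoblast list, which reached 413 CPM in 2iL EB at days 5 to 7, so the cardiac and trophoblast lists are not separate. Gata4, Gata6 and Pdgfra are also expressed in heart and mesoderm, and the part of these cells in the values was not tested. Without this library the rises of Gata4 (0.78) and Pdgfra (0.81) no longer passed, and those of Afp and Sox17 did.

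At days 5 and 7, 8 of the 10 genes were lower in EB than in N2B27 (19.2% of genes were lower) and Afp was higher (2.11 ± 0.62, adjusted p = 0.0088; 18.1% were higher). The log2 difference was -3.15 ± 0.86 for Cubn, -2.27 ± 0.74 for Dab2, -0.83 ± 0.13 for Lrp2, -1.89 ± 0.53 for Gata4, -2.02 ± 0.40 for Gata6, -2.04 ± 0.50 for Sox17, -2.22 ± 0.59 for Sox7 and -2.05 ± 0.51 for Pdgfra. Amn, at 24.6 and 39.0 CPM in SL EB and 18.7 and 16.6 CPM in SL N2B27, did not pass (-0.31 ± 0.40). Without the 2iL N2B27 library of day 7, Gata4 (adjusted p = 0.079) and Dab2 (adjusted p = 0.059) lost their calls. The change since days 1 to 2 was larger in N2B27 than in EB for Cubn (4.45 ± 1.08), Lrp2 (1.59 ± 0.17), Dab2 (3.51 ± 0.95), Sox7 (2.48 ± 0.77) and Gata4 (2.11 ± 0.71), with 10.6% of genes passing in this direction, and the call was lost in 9 of 20 fits without 1 library for Gata4 and in 4 of 20 for Sox7. Both were lost without the 2iL EB library of day 2, which left 3 of the 5.

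Against FA, EB was higher at days 5 and 7 for Afp (5.36 ± 0.94, adjusted p = 0.00048), Pdgfra (2.94 ± 0.66), Sox17 (2.15 ± 0.62), Gata6 (2.00 ± 0.50), Gata4 (1.99 ± 0.66) and Amn (1.65 ± 0.50), where 5.12% of genes were higher, and lower for Lrp2 (-0.58 ± 0.15, adjusted p = 0.0094), where 6.69% were lower. Of the visceral list 8 of 14 were higher in EB, including Apom (3.76 ± 0.60) and Ttr (3.43 ± 0.75), and of the other primitive endoderm markers none of 8. Without the 2iL EB library of day 7, 3 of the 10 genes were higher, and Gata4, Gata6 and Sox17 were not among them. The summed visceral list stood at 1140 to 2011 CPM in SL EB at days 5 and 7, at 84.5 to 97.3 CPM in 2iL EB and at 140 to 582 CPM in N2B27.

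Levels of different members were compared per length, as CPM per kilobase of exon. On this scale the order at day 7 of N2B27 from SL was led by Cubn (119), Dab2 (76.5) and Lrp2 (68.3), followed by Pdgfra (34.4) and Gata4 (27.5), with Sox7 last (7.21). In SL EB at day 7 the level of Afp (184) was above those of Dab2 (42.1), Lrp2 (40.9) and Cubn (32.8). In the SL library of day 0 Cubn (18.3) and Lrp2 (17.0) led and Afp was last (0.0814). Each order is from 1 library, so neighbours such as Dab2 and Lrp2 cannot be separated.

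Over the 45 libraries, log2 levels of Cubn ran closest to those of Dab2 (Pearson r = 0.97), followed by Amn and Sox7 (both 0.92), Gata4 (0.87) and Lrp2 (0.84), and least closely to Afp (0.64). Sox17 ran closest to Pdgfra (0.95). These are descriptions over libraries that share a cell line and, within a course, a time series. The libraries of day 0 are included, and the genes of the group were selected on a higher level in SL at that day. Correlations between members are therefore not independent of that selection, and they were not computed without the libraries of day 0. Among 13276 genes that reached 5 CPM in some library, those outside the group most like Cubn were Tfec (0.958), Nostrin (0.933), Mttp (0.933), Foxq1 (0.930) and Myo7a (0.927). For Gata4 they were Habp2 and Egflam (both 0.963), Flrt3 (0.959), Adora1 (0.955) and Col4a1 (0.947). Afp was most like Fgb (0.943), Apoa1 (0.941), Slc39a5 (0.940), Ttr (0.912) and Maob (0.901), of which Fgb, Apoa1 and Ttr encode secreted plasma proteins.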

How the data were processed

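Total RNA depleted of ribosomal RNA was sequenced strand-specifically. The authors trimmed reads with TrimGalore, aligned them to GRCm38 with TopHat2 and Ensembl gene models, and counted them per gene with featureCounts; the deposited values are raw counts. Rows without a symbol (435, at most 0.0014% of a library's counts) were left out. CPM is the count over the library total. Counts of the 41 libraries from day 1 were fitted with edgeR 4.0.16 in R 4.3.3 (quasi-likelihood, TMM, robust, filter on low counts) with a mean for each of 18 combinations of medium, course and stage (days 1 to 2, 2.5 to 3, 5 to 7), the days of a stage standing in for replicates. P-values were adjusted by Benjamini-Hochberg over 16944 genes, and all 10 genes passed the filter. Day 0 was described on log2(CPM + 0.1) with a fold of 2. Alternatives were DESeq2 1.42.0, no filter, the day as a block, summed counts, an additive model and leaving out libraries or courses. The method was run on simulated counts drawn independently for each library, with no trend across the days of a stage. That run therefore does not test the use of days as replicates. The 10 genes, the marker lists and the comparisons were chosen with earlier results of these data known, and 5 comparisons (the changes to days 2.5 to 3, and the differences in late change between courses) were added after the values were seen. Of each marker list, at most the 4 genes with the largest fold past the threshold are named, apart from genes used to check labels. Likeness is Pearson's r of log2(CPM + 0.1) among genes with at least 5 CPM in 1 library.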

Additional observations from a re-analysis of the deposited data

Results flagged for a closer look

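The 17 results below were singled out because a test of the difference between 2 groups' changes passed an adjusted p of 0.05 in edgeR. Those that compare the starting media are not independent of the selection of the genes on a higher level in SL at day 0. The SL minus 2iL difference fell from days 1 to 2 to days 5 and 7 for Lrp2 (-0.74 on the log2 scale), Amn (-2.53), Gata4 (-2.29) and Pdgfra (-2.20). The late change was larger in N2B27 than in FA for Cubn (4.20), Gata4 (4.08), Gata6 (3.67), Sox17 (3.75), Sox7 (4.01) and Pdgfra (4.43). It was larger in N2B27 than in EB for Cubn (4.45), Lrp2 (1.59), Dab2 (3.51), Gata4 (2.11) and Sox7 (2.48). The change from days 1 to 2 to days 2.5 to 3 was larger from 2iL than from SL for Lrp2 (0.57) and Amn (2.33). The causes were not tested.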

How the results depend on the processing

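All 10 genes were higher from SL at days 1 to 2, and all 10 rose in N2B27, under DESeq2, without the filter, with the day as a block and with summed counts. Counts of all genes past the threshold moved by over 1.5 times as follows. With DESeq2, SL against 2iL at days 5 to 7 gave 584 genes (364 in edgeR) and the change in that difference 1451 (935). With the day as a replicate block, SL against 2iL gave 3665 at days 2.5 to 3 (1669) and 1292 at days 5 to 7, EB against FA 4088 (2000), FA against N2B27 6589 (3847) and the change in the SL minus 2iL difference 2905. With counts summed per medium, course and stage, SL against 2iL gave 3539, 825 and 61 genes at the 3 stages (5498, 1669 and 364), and the additive model gave 214 at days 5 to 7. At day 0 a pseudocount of 1 CPM left 1804 of 3741 genes.

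When each library or course was left out, SL against 2iL gave 3163 to 5902 genes at days 1 to 2, 557 to 1725 at days 2.5 to 3 and 155 to 746 at days 5 to 7, the lowest without FA, FA and EB. EB against N2B27 gave 4511 to 6310, EB against FA 1294 (without SL EB day 5) to 1942, and FA against N2B27 2609 to 3951. The late change gave 9517 to 10791 genes in EB, 8122 to 9567 in FA and 10496 to 11506 in N2B27, the change in the SL minus 2iL difference 691 to 1407, and day 0 3742 to 4004.

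Values that turned sign were all short of the threshold. Sox7 in EB was -0.060 with the day as a block and -1.33 to 0.47 with a library left out. The N2B27 minus EB change of Afp was 0.88 with summed counts and -1.29 to 0.21 with a library left out. With a library or course left out, Amn (-0.44 to 0.94), Cubn (-1.56 to 0.52) and Gata4 (-0.41 to 0.46) in FA, Dab2 (-0.022 to 1.08) and Gata6 (-0.071 to 0.92) in EB, Sox7 in EB against FA (-0.092 to 1.94), Pdgfra from SL against 2iL at days 5 to 7 (-0.28 to 0.45), and the changes to days 2.5 to 3 of Cubn (-0.086 to 0.033) and Sox17 (-0.27 to 0.026) from SL and Pdgfra from 2iL (-0.12 to 0.24) spanned 0. The causes were not tested. Each medium, course and day has 1 library, and 3 reads are 0.0754 to 0.229 CPM, which limits Afp and Amn from 2iL.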
